A study of Mus musculus with 8 samples.

Results

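The Bcl2 family decides whether a cell releases cytochrome c from its mitochondria and dies. Its mRNAs were examined here in Lin-Sca1+Kit+ (LSK) cells, a bone marrow fraction made up of haematopoietic stem cells and early multipotent progenitors. The 10 genes described are the pro-survival genes Bcl2, Bcl2l1 and Mcl1, the effectors Bax and Bak1, and the BH3-only genes Bcl2l11, Bid, Bmf, Bad and Bbc3. They were taken by symbol from a table of 26146 genes, and all 10 were found and passed the filter on low counts. LSK cells were sorted from 4 Jmjd6 KO mice, in which a floxed Jmjd6 gene had been deleted by a Cre recombinase active in haematopoietic lineages, and from 4 wild type mice. Each mouse gave 1 library of polyA RNA. No source used here names the Cre driver, the age of the mice, or whether the wild type mice carried the floxed gene or the Cre. The labels do not say how complete the deletion was in the sorted cells.

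In this pathway the pro-survival proteins hold the effectors BAX and BAK in check on the outer mitochondrial membrane. BH3-only proteins are made or activated under stress or on loss of growth factor, bind into a groove of the pro-survival proteins and, in some cases, activate the effectors directly. MCL1 is known from mouse deletion to be needed for the survival of haematopoietic stem cells. Much of this control acts on the proteins through cleavage, phosphorylation, degradation and binding, none of which a count of mRNA measures.

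The stretch that gives the BH3-only class its name is shown here because all 3 classes share it and it was not used to choose the genes. Each line gives 24 coding bases in the sense direction, 5′ to 3′, from the GENCODE M21 transcript with the longest coding sequence. They run from a leucine codon that anchors the helix, and the capitals mark 2 codons, the small residue and the aspartate at the centre of the motif.
Bcl2: ctccgccgggctGGGGATgacttc
Bcl2l1: ctgagagaggcaGGCGATgagttt
Mcl1: ctgcggcgcgtgGGCGACggcgtg
Bax: ctccggcgaattGGAGATgaactg
Bak1: cttgctctcatcGGAGATgatatt
Bcl2l11: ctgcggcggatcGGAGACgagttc
Bid: ctcgcccaaataGGCGATgagatg
Bmf: cttcagtgtattGCAGACcagttc
Bad: ctccgaaggatgAGCGATgagttt
Bbc3: ctgcggcggatgGCGGACgacctc
The first capital codon encoded glycine in 7 of the 10 genes, in all of the pro-survival genes and effectors and in Bcl2l11 and Bid. It encoded alanine in Bmf and Bbc3 and serine in Bad, so the departures from glycine lay within the BH3-only class. The aspartate was part of the search pattern, so its codon, GAT or GAC, was fixed in advance in all 10. The pattern searched in the translated coding sequence was leucine, any 3 residues, glycine, alanine or serine, aspartate, then aspartate, glutamate, glutamine or glycine, and last phenylalanine, leucine, methionine, valine or isoleucine. These residues were taken from the known motifs of the family, so the 1 match in each gene was built in, and 3.2% of 21599 mouse protein-coding genes also held a match.

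The libraries held between 9344779 and 15079960 counts, and each gene is given as CPM, the count scaled to the TMM-adjusted size of the library. Jmjd6 stood at 28.7 ± 1.41 CPM in Jmjd6 KO libraries and at 58.6 ± 5.93 CPM in wild type libraries (SD, n = 4 each). This was a log2 fold change of -1.03 (adjusted p = 0.0381, quasi-likelihood test of edgeR). The call was lost when any single library other than KO replicate 3 was left out, with adjusted p of up to 0.254 by edgeR, while the log2 fold change stayed between -1.06 and -0.99. The call was also lost with the replicate number as a block (adjusted p = 0.402 by edgeR) and with KO replicate 3 and wild type replicate 4 both left out (adjusted p = 0.105 by edgeR). Kit and Ly6a, the markers of the sort, had at least 4268 and 1139 counts in every library, whereas the T cell gene Cd3e had 0 counts in 7 of the 8 libraries and 1 in the other. Of 9 LSK and stem cell markers 3 had an unadjusted p under 0.05 by edgeR, against 6.06% of all tested genes. In Jmjd6 KO and wild type libraries Hlf averaged 145 and 227 CPM, Mecom 37.3 and 55.9 CPM, and Slamf1 10.8 and 5.71 CPM. The groups did not overlap for Hlf and Slamf1, against 4.19% of all tested genes. By edgeR 0 of the 9 passed an adjusted p of 0.05. On the first principal component KO replicate 3 lay away from the rest, at 83.9 against -28.0 to 9.41 in the other 7 libraries. KO replicate 3 and wild type replicate 4 carried Xist and had 0 counts of 4 Y-linked genes, whereas the other 6 libraries had Y-linked counts. Wild type replicate 1 had 419 CPM over 6 erythroid markers, against 20.2 to 65.3 CPM in the other 7 libraries, and 5212 CPM over 7 granulocyte and monocyte markers, against 977 to 2374 CPM. The part of these differences in any result below was not tested. In bulk RNA a smaller number of expressing cells cannot be told apart from less RNA per cell.

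No rise or fall of any of the 10 genes was detected in Jmjd6 KO cells. By edgeR's quasi-likelihood test, with p-values adjusted over 13439 tested genes, 0 of 10 passed an adjusted p of 0.05, where 8 genes, 0.0595% of all tested, did. An unadjusted p under 0.05 was reached by 0 of the 10, against 6.06% of all tested genes, and DESeq2 called 0 of the 10, against 0.492% of the genes it tested, and limma voom 0, against 0.231%. The Jmjd6 KO and wild type values overlapped in all 10 genes, whereas the groups did not overlap in 4.19% of all tested genes. The fitted log2 fold changes lay between -0.44 for Bmf and 0.34 for Bid, with a median of 0.09 against -0.0024 over all tested genes. They lay above 0 in 8 genes and below 0 in 2, where 49.6% of all tested genes lay above 0. Their median size regardless of sign was 0.11, against 0.19 over all tested genes, a comparison not matched for expression level. The smallest adjusted p by edgeR was 0.832, for Bid, so these data set limits on a difference and do not show that the groups are equal.

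**Figure D1:**
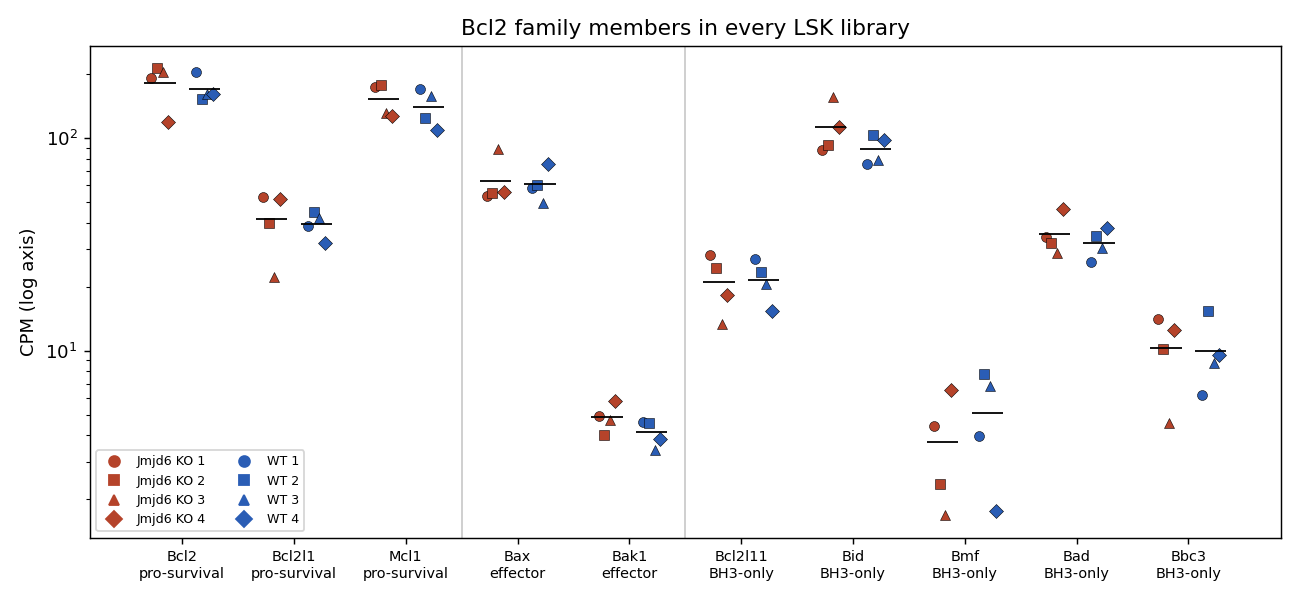
CPM (log axis) of the 10 genes, with the Jmjd6 KO libraries in red to the left of the wild type libraries in blue, 1 marker shape per replicate number and a black line at each group's mean. The groups overlap for every gene, and the red triangle of KO replicate 3 is the highest point for Bax and Bid and the lowest for Bcl2l1, Bcl2l11, Bmf and Bbc3.

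Among the pro-survival genes, Bcl2 encodes the founding member of the family and occupies 106538178 to 106714274 of chromosome 1, minus strand (GRCm38, the assembly that mm10 names). Bcl2 stood at 192, 213, 204 and 119 CPM in Jmjd6 KO replicates 1 to 4, against 204, 152, 161 and 162 CPM in wild type replicates 1 to 4. KO replicate 4 was the lowest of all 8 libraries, and the other 3 KO libraries were above 3 of the 4 wild type libraries. Jmjd6 KO over wild type, Bcl2 gave a log2 fold change of 0.10 (95% interval -0.31 to 0.52, adjusted p = 0.927 by edgeR), and 0.26 without KO replicate 4. Bcl2 shares 558 exonic bases with the antisense gene D630008O14Rik, which averaged 30.7 and 28.8 CPM in Jmjd6 KO and wild type libraries. No source used here gives the strand setting of the counting, so reads of the 2 genes may not have been told apart.

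Mcl1, a short-lived protein's gene on the plus strand of chromosome 3 from 95658788 to 95663176, stood at 174, 178, 131 and 127 CPM in the KO libraries, against 170, 124, 158 and 109 CPM in the wild type libraries. Both groups held a higher and a lower pair of libraries, and the spread within each group was larger than the difference between the means of 153 ± 27.4 CPM in KO and 140 ± 28.5 CPM in wild type (SD, n = 4 each). Mcl1 gave a log2 fold change of 0.12 (interval -0.28 to 0.52, adjusted p = 0.908 by edgeR). A change of Mcl1 beyond 1.44-fold upward, or down to less than 0.825 of the wild type level, lay outside that interval. Mcl1 had between 1541 and 1979 counts in each library.

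Bcl2l1 encodes BCL-X (chromosome 2, 152780668 to 152831728, minus strand). It stood at 52.6, 40.1, 22.3 and 51.7 CPM in the KO libraries, against 38.8, 45.2, 42.0 and 32.2 CPM in the wild type libraries. KO replicates 1 and 4 were above every wild type library and KO replicate 3 was below every one. Its log2 fold change was 0.08 (interval -0.47 to 0.63, adjusted p = 0.958 by edgeR). It was 0.29 without KO replicate 3 and -0.05 without KO replicate 4, so its sign rested on single libraries. Splicing of Bcl2l1 yields a long pro-survival and a short pro-death form, and Mcl1 and Bcl2l11 are likewise spliced into forms of differing activity. Counts per gene do not separate these forms, and splicing was not analysed here.

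The effectors differed widely in level but not detectably between genotypes. Bax, whose protein moves from the cytosol to mitochondria when activated, is encoded on chromosome 7 (45461697 to 45466898, minus strand). The gene stood at 53.2, 55.0, 88.5 and 56.1 CPM in the KO libraries, against 58.3, 60.5, 49.4 and 75.5 CPM in the wild type libraries. The highest library of each group was the one with Xist and no Y-linked counts, KO replicate 3 and wild type replicate 4. For Bax the log2 fold change was 0.05 (interval -0.40 to 0.50, adjusted p = 0.967 by edgeR). It was -0.15 without KO replicate 3 and -0.04 with both Xist-bearing libraries left out. Bax shares 192 exonic bases with Gm45808, a protein-coding gene on the same strand whose symbol was not among the genes counted. How reads of these bases were assigned is not known.

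Bak1, whose protein resides on mitochondria, is encoded on chromosome 17 (27019810 to 27029009, minus strand). The gene stood at 4.93, 4.01, 4.73 and 5.81 CPM in the KO libraries, against 4.64, 4.59, 3.41 and 3.85 CPM in the wild type libraries. The KO range began inside the wild type range, and 3 of 4 KO libraries were above all wild type libraries. This gave a log2 fold change of 0.24 (interval -0.37 to 0.86, adjusted p = 0.883 by edgeR), on 34 to 75 counts per library. Up to 437 exonic bases of Bak1 are shared with Ggnbp1 on the other strand, which averaged 4.03 CPM in KO and 2.97 CPM in wild type, a level like that of Bak1 itself.

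**Figure D2:**
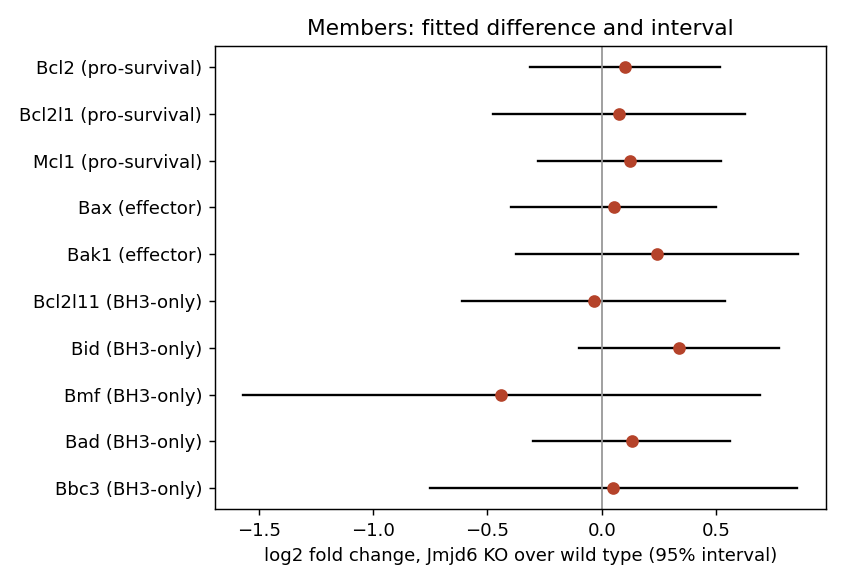
Fitted log2 fold change (x axis, Jmjd6 KO over wild type) of each of the 10 genes (rows) by edgeR, with its 95% interval as a line. Every interval crosses 0; the narrowest is that of Mcl1, -0.28 to 0.52, and the widest that of Bmf, -1.57 to 0.69.

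Among the BH3-only genes, Bid had the smallest p of the 10. BID links death receptors to mitochondria after caspase 8 cleaves it, and the gene is on chromosome 6 (120891930 to 120916853, minus strand). Bid stood at 87.9, 93.3, 157 and 113 CPM in the KO libraries, against 75.8, 104, 79.0 and 97.7 CPM in the wild type libraries. KO replicates 3 and 4 were above all wild type libraries, and KO replicates 1 and 2 lay inside the wild type range. The means were 113 ± 31.2 CPM in KO and 89.0 ± 13.7 CPM in wild type (SD, n = 4 each), a log2 fold change of 0.34 (interval -0.10 to 0.77, adjusted p = 0.832 by edgeR). Bid ranked 1830 of 13439 by p, and its log2 fold change was 0.14 without KO replicate 3. Bid shares 628 exonic bases with Bcl2l13 on the other strand, which gave -0.13 (adjusted p = 0.892 by edgeR).

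Bcl2l11 encodes BIM, which binds all pro-survival members and is raised by FOXO factors on loss of cytokines. The gene is on chromosome 2 (128126038 to 128162547, plus strand). Bcl2l11 stood at 28.3, 24.4, 13.3 and 18.2 CPM in the KO libraries, against 26.9, 23.3, 20.7 and 15.3 CPM in the wild type libraries. The lowest library of each group was again KO replicate 3 and wild type replicate 4, and the means of 21.1 and 21.6 CPM in KO and wild type differed by far less than either SD, 6.62 and 4.89 CPM. Between genotypes the log2 fold change was -0.03 (interval -0.61 to 0.54, adjusted p = 0.984 by edgeR), and 0.13 without KO replicate 3.

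Bbc3 encodes PUMA, a BH3-only protein induced by p53, and is on chromosome 7 (16308393 to 16318205, plus strand). Bbc3 stood at 14.2, 10.2, 4.58 and 12.5 CPM in the KO libraries, against 6.18, 15.3, 8.74 and 9.52 CPM in the wild type libraries. The highest value was in wild type replicate 2 and the lowest in KO replicate 3, so each group held much of the range. Bbc3 gave a log2 fold change of 0.05 (interval -0.75 to 0.85, adjusted p = 0.983 by edgeR); it was 0.30 with KO replicate 3 left out, 0.34 with wild type replicate 2 left out and -0.12 with KO replicate 1 left out. Bax is also known as a p53 target in mouse cells, and neither gene passed the test here.

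Bad encodes a protein that survival kinases hold inactive by phosphorylation, and is on chromosome 19 (6941861 to 6951899, plus strand). Bad stood at 34.2, 32.1, 28.9 and 46.2 CPM in the KO libraries, against 26.3, 34.6, 30.3 and 37.7 CPM in the wild type libraries. KO replicate 4 was above every wild type library and the other 3 lay inside the wild type range. Its log2 fold change was 0.13 (interval -0.30 to 0.56, adjusted p = 0.908 by edgeR) and was -0.02 without KO replicate 4. Bad shares 524 exonic bases with Gpr137 on the other strand, which averaged 19.4 CPM in KO and 18.1 CPM in wild type.

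Bmf, whose protein is tethered to the actin cytoskeleton until released, is encoded on chromosome 2 (118528757 to 118549687, minus strand). Bmf stood at 4.40, 2.37, 1.68 and 6.51 CPM in the KO libraries, against 3.98, 7.78, 6.83 and 1.77 CPM in the wild type libraries. Both groups reached from below 2 to above 6 CPM, with coefficients of variation of 58.3% in KO and 53.9% in wild type. Of the 10 log2 fold changes that of Bmf was the largest in size, at -0.44, with the widest interval, -1.57 to 0.69 (adjusted p = 0.885 by edgeR). It ran from -0.85 without KO replicate 4 to -0.15 without wild type replicate 2.

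The larger differences lay between libraries of the same genotype. KO replicate 3 was the highest or the lowest of the 8 libraries for 6 of the 10 genes. That share was near the background, as KO replicate 3 was at an end of the range for 52.3% of all tested genes. It held 169% of the mean of the other 7 libraries for Bid and 152% for Bax, against 51.5% for Bcl2l1, 59.4% for Bcl2l11, 41.8% for Bbc3 and 34.9% for Bmf. Wild type replicate 4 held 125% of the mean of the other 7 for Bax, 69.1% for Bcl2l11, 77.1% for Bcl2l1 and 36.9% for Bmf, but 96.4% for Bid and 93.1% for Bbc3.

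**Figure D3:**
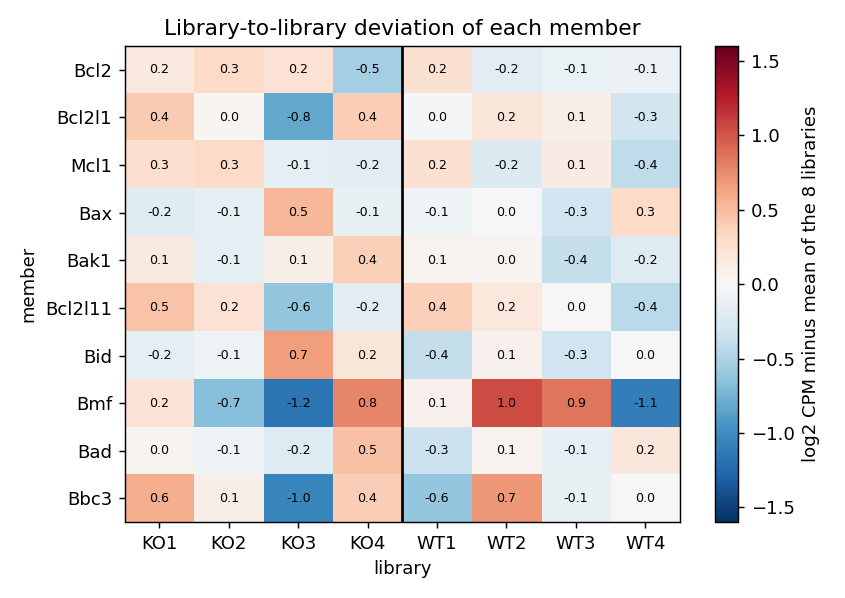
Log2 CPM of each gene (rows) in each library (columns, Jmjd6 KO left of the black line and wild type right of it) minus that gene's mean over the 8 libraries; red is above and blue below that mean. KO3 ranges from 0.67 for Bid down to -1.17 for Bmf, and WT4 has -1.10 for Bmf.

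Ratios between pairs of these genes also overlapped between genotypes. The log2 ratio of Bax to Bcl2 in CPM, a description in common use for this family, was -1.85, -1.95, -1.21 and -1.09 in the KO libraries, against -1.81, -1.33, -1.71 and -1.10 in the wild type libraries. The groups overlapped almost entirely, with means of -1.52 in KO and -1.49 in wild type. For Bcl2l11 to Mcl1 the log2 ratio lay between -3.29 and -2.62 in KO and between -2.93 and -2.41 in wild type. These ratios combine genes chosen together and were not tested.

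Levels of different genes were compared as CPM per kilobase of the longest annotated transcript, over all 8 libraries. Bax was highest, with a median of 52.0 CPM per kilobase, followed by Mcl1 at 42.2, Bid at 39.5, Bcl2 at 24.6, Bad at 21.6, Bcl2l1 at 16.0, Bbc3 at 5.43, Bcl2l11 at 4.37, Bak1 at 1.93 and Bmf at 0.902. Thus 1 effector was at the top of the order and the other next to the bottom, and the BH3-only genes ran from rank 3 to rank 10. Of the 9 pairs of neighbours, 5 differed by a two-sided exact paired permutation test with adjustment over the 9 pairs. Both the pairs and their direction came from the same 8 libraries that were tested. The test measured only whether a step recurred across libraries, and did not cover error in the lengths. With this length the largest step was below Bcl2l1, which exceeded Bbc3 by 1.55 ± 0.34 on the log2 scale (SD, n = 8) in 8 of 8 libraries, with an adjusted exact p of 0.0176. Bid over Bcl2, Bad over Bcl2l1 and Bcl2l11 over Bak1 were also higher in 8 of 8 libraries, by 0.76, 0.51 and 1.14 on the log2 scale and with the same adjusted exact p of 0.0176. The raw exact p of these pairs, 0.00781, is the smallest that 8 libraries can give. With the median transcript length the steps of Bcl2l1 over Bbc3, Bid over Bcl2 and Bcl2l11 over Bak1 were 1.02, 2.34 and 2.23.

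Bak1 exceeded Bmf by 1.19 in 7 of 8 libraries (adjusted exact p = 0.0281), but with the median in place of the longest transcript length this turned to -1.38. The adjusted exact p was 0.0562 when any single library was left out other than wild type replicate 1 or 3. Bax and Mcl1, Mcl1 and Bid, Bcl2 and Bad, and Bbc3 and Bcl2l11 did not differ beyond their spread, with adjusted exact p of 0.141, 0.789, 0.51 and 0.141, although Bbc3 and Bcl2l11 did at 0.0469 with wild type replicate 1 left out. With the median transcript length Bid lay above Mcl1, at a log2 difference of -1.37 for Mcl1 over Bid (adjusted exact p = 0.0141). The order depends on which transcript length is taken: with the median length, Bid moved to the top at 170 CPM per kilobase, followed by Bax at 84.8 and Mcl1 at 67.5, and the step between Bad and Bcl2l1 was lost (adjusted exact p = 0.0904). Summed per kilobase, the pro-survival genes made up 44.3%, 44.4%, 30.5% and 34.2% of the 10 genes in the KO libraries, against 45.2%, 35.3%, 43.7% and 31.7% in the wild type libraries. The lowest shares of both groups were again those of KO replicate 3 and wild type replicate 4.

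**Figure D4:**
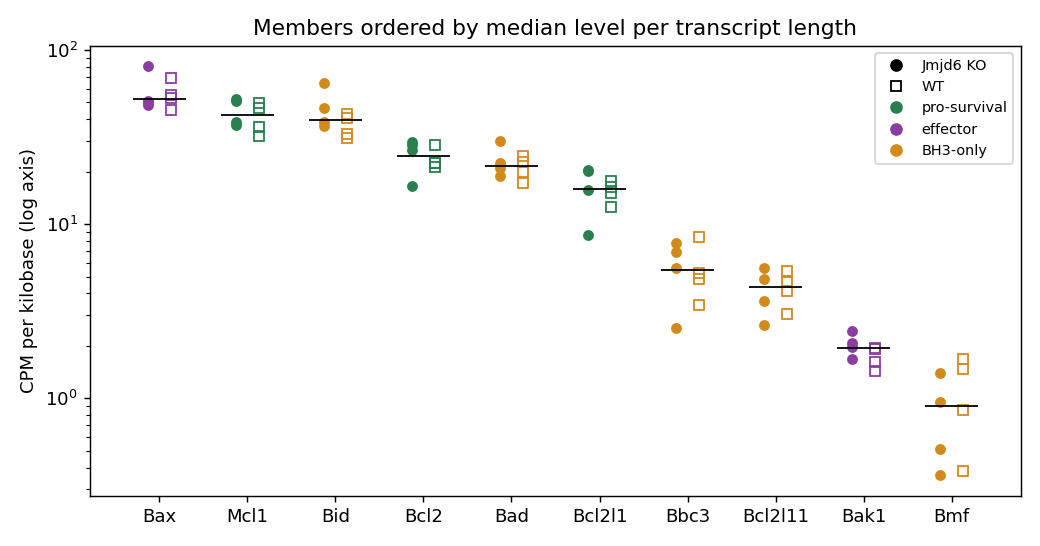
CPM per kilobase of the longest transcript (log axis) for the 10 genes, ordered by their median over 8 libraries (black line); filled circles are Jmjd6 KO and open squares wild type libraries, coloured by class. The medians fall from 52.0 for Bax to 0.902 for Bmf, with a gap between Bcl2l1 at 16.0 and Bbc3 at 5.43.

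The rest of the pathway was read from lists of 61 genes, of which 53 passed the filter on low counts. By edgeR 0 of the 53 passed an adjusted p of 0.05 in either direction, and DESeq2 and limma voom also called 0. An unadjusted p under 0.05 was reached by 2 of the 53, Bcl2l14 and Bok, against 6.06% of all tested genes. These were also the 2 genes whose groups did not overlap, against 4.19% of all tested genes. Their intervals given below are per gene and not adjusted for this choice among the 53. The median log2 fold change of the 53 was 0.04, with 32 above and 21 below 0, where 49.6% of all tested genes lay above 0.

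Bcl2l14 encodes a distant BCL2 homologue with a BH3-like stretch. It stood at 25.7, 15.7, 11.5 and 20.5 CPM in the KO libraries, against 5.52, 10.8, 11.1 and 5.74 CPM in the wild type libraries. The lowest KO library was just above the highest wild type library. Bcl2l14 gave a log2 fold change of 1.14 (interval 0.44 to 1.85), and edgeR's quasi-likelihood test gave an unadjusted p of 0.00424 and an adjusted p of 0.518; it was 0.0907 by DESeq2 and 0.145 by limma voom. That log2 fold change lay between 0.96 and 1.32 with single libraries left out. The gene (chromosome 6, 134396318 to 134438736, plus strand) shares 577 exonic bases with the antisense gene 4933406J09Rik, whose symbol was not among the genes counted.

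Bok encodes a BAX-like effector that is controlled by degradation of the protein. It stood at 17.6, 12.9, 12.1 and 16.2 CPM in the KO libraries, against 10.7, 10.2, 9.74 and 8.76 CPM in the wild type libraries. All 4 KO libraries were above all 4 wild type libraries. Bok gave a log2 fold change of 0.57 (interval 0.11 to 1.04, unadjusted p = 0.0202 and adjusted p = 0.772 by edgeR), and it lay between 0.49 and 0.66 with single libraries left out.

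Among the other pro-survival genes, Bcl2l2, which encodes BCL-W, gave a log2 fold change of 0.02 at 8.29 ± 2.08 CPM in KO and 8.19 ± 0.95 CPM in wild type (SD, n = 4 each). The Bcl2a1 copies are near-identical, so the split of their reads is uncertain. Bcl2a1b gave 0.59 (adjusted p = 0.85 by edgeR) on 7 to 41 counts per library, and 0.08 without KO replicate 3. Bcl2a1a, Bcl2a1c, Bcl2a1d and Bcl2l10 did not pass the filter, nor did the BH3-only genes Bik and Hrk, the homologue Bcl2l15 and the ligand gene Fasl, none of which exceeded 8 counts in a library. Pmaip1, which encodes the MCL1-binding BH3-only protein NOXA, averaged 7.80 CPM in KO and 7.75 CPM in wild type, with a log2 fold change of 0.0096. Of the 6 tested BCL2-like genes 5 lay above 0, with a median of 0.10; Bcl2l13 and Bcl2l12 gave -0.13 and 0.18, and Bcl2l12 turned to -0.22 without KO replicate 3.

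A further list of 17 genes, all tested, held those of cytochrome c, the apoptosome, the caspases and their inhibitors. It also held related genes, among them Vdac2, Dffa, Dffb, Aifm1 and Endog. In this list 10 lay above and 7 below 0 with a median of 0.10. Cycs, the cytochrome c gene, gave 0.32 and Aifm1, the gene of a mitochondrial flavoprotein, gave 0.24, with adjusted p by edgeR of 0.832 and 0.845. Without KO replicate 3 the values of Cycs and Aifm1 were 0.10 and 0.06. In the death receptor pathway 7 of 9 tested genes lay above 0, against 49.6% of all tested genes, with a median of 0.11. Casp8, whose protein cleaves BID, stood at 175, 192, 242 and 221 CPM in KO libraries, against 159, 178, 164 and 170 CPM in wild type libraries. Only KO replicate 1 lay inside the wild type range, and the log2 fold change was 0.30 (adjusted p = 0.811 by edgeR). The adaptor genes Tradd and Fadd gave 0.38 and 0.23, with adjusted p of 0.826 and 0.833 by edgeR.

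Genes whose proteins control the family had a median of -0.02, with 6 of 17 above 0. Trp53, the gene of p53, gave a log2 fold change of 0.25 (adjusted p = 0.848 by edgeR), which was 0.07 without wild type replicate 2, at 209 CPM the lowest of the 8 libraries. Akt1, a kinase of BAD, gave -0.17, and Pim1, another, gave -0.28, with adjusted p of 0.871 and 0.881 by edgeR. Pim1 turned to 0.04 without wild type replicate 4.

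**Figure D5:**
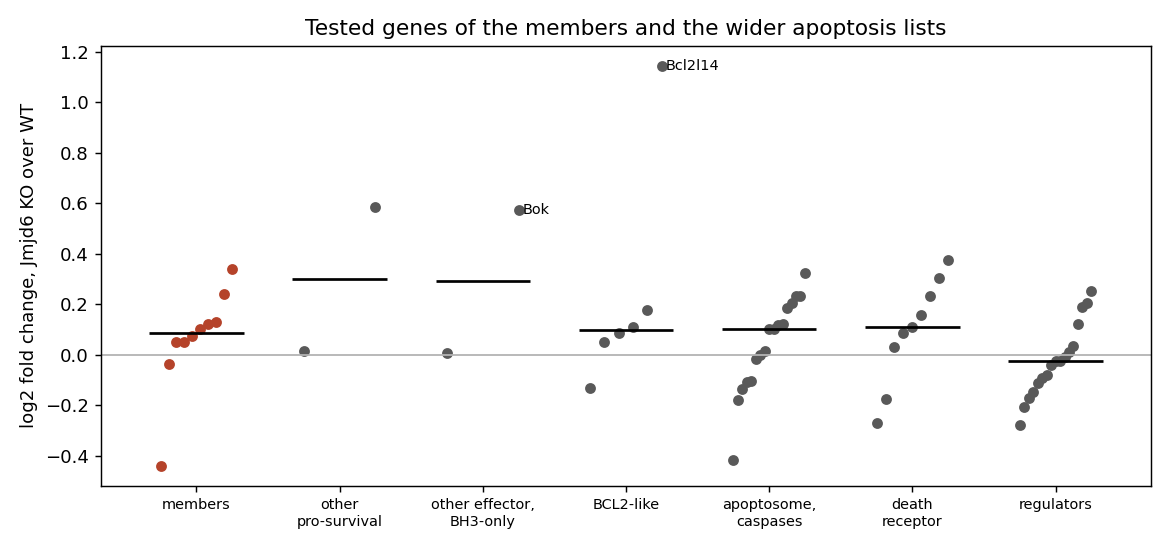
Log2 fold change (Jmjd6 KO over wild type) of every tested gene of the 10 members (red) and of the wider lists (grey), sorted within each list, with a black line at each median. All values but those of Bcl2l14 (1.14), Bcl2a1b (0.59) and Bok (0.57) lie between -0.44 and 0.38.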

How the data were processed

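RNA of 8 sorted LSK samples was sequenced, 1 per mouse. The authors deposited raw counts per gene symbol. Reads were aligned with HISAT2 to mm10, per the submitters' processing notes; the counting tool, annotation and strand setting remain not given in the sources used here. KO was compared with wild type by the quasi-likelihood test of edgeR 4.0.16 (R 4.3.3), with TMM scaling and filterByExpr (minimum count 10, minimum total 15), keeping 13439 genes; Benjamini-Hochberg adjustment ran over all of them, and genes were called under 0.05. Intervals of 95% come from that fit. DESeq2 1.42.0 and limma 3.58.1 (voom with sample weights) were alternatives, with other scalings, filters and left-out libraries, a replicate block, and removal of a loess trend with transcript length and level. Scripts were tested on simulated counts. Lengths, positions and coding sequence came from GENCODE M21 (GRCm38). The genes named were the 10 members, Jmjd6, and per wider list the 3 with the smallest p, of which 1 is not reported here. The members and lists were chosen with earlier results of these data known. Replicates differed by more than sampling noise.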

Additional observations from a re-analysis of the deposited data

Results flagged for a closer look

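Each of 54 groups of 4 values, the 10 members, Jmjd6 and 16 genes of the wider lists in each genotype, was examined for a library far from the other 3; chance gives about 1 in 20 groups, and 5 stood out. Among the members this was Bax, with 88.5 CPM in KO replicate 3 and 53.2 to 56.1 CPM in KO replicates 1, 2 and 4. KO replicate 3 was likewise the high library for Bcl2a1b at 3.13 CPM and for Bcl2l12 at 52.5 CPM. Among the wild type libraries replicate 1 was high for Bcl2l2 at 9.61 CPM, and replicate 4 for Pim1 at 44.3 CPM.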

How the results depend on the processing

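The 10 members were recomputed under 17 alternatives, and 0 of the 170 values passed the test where a test was made, the smallest adjusted p being 0.634, for Bid without KO replicate 1. Of the 170 values 149 kept the sign, and 21 turned, those of Bax, Bcl2l11, Bbc3, Bcl2l1 and Bad. Over 13187 tested genes with a known length, the log2 fold change fell with transcript length (Spearman rho = -0.31). Removing the trend with transcript length and level took Bax to -0.13, Bad to 0.02, Bcl2l11 to 0.07 and Bid to 0.27. It took Bcl2 to 0.17 and Bak1 to 0.28, above their main values. The count of members called was 0 under every alternative that gives counts, as was that of the wider lists. The count of 8 called genes was 66 by DESeq2, 31 by limma voom and 4 with KO replicate 3 and wild type replicate 4, the Xist-bearing libraries, both left out. It ran from 2 to 8 when each library was dropped in turn: 2 without KO replicate 4 and 2 without each of wild type replicates 1, 2 and 3. With the replicate number as a block 3 genes were called; deviations of same-numbered libraries correlated between -0.19 and 0.03, 0 of 8 libraries correlated best with their own number, and the block called 0 members. By level per length, the 5 differing neighbour pairs were between 4 and 6 with single libraries left out; with the median transcript length Bak1 over Bmf turned to -1.38. Bmf had 22 to 117 and Bak1 34 to 75 counts per library.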
